A study of Mus musculus with 9 samples.

Results

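The 5 genes described here are Lhfpl1, Rflna, Meox1, Fam43b and Irak1bp1, out of 49585 genes in a table of raw read counts from mouse breast adenocarcinomas. They were selected on these same counts: each was lower in every tumour given a vector against mutant p53 than in the mean of the tumours given a control vector. All 5 were found in the table, and their difference between the groups is therefore a description, with no test. RNA of 9 flash-frozen tumours was sequenced: 3 were AAV-Control (control tumours) and 6 were AAV-delta-mut-p53 (targeted tumours). AAV is adeno-associated virus, used as a carrier of genes into tissue.

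All 9 tumours, controls included, carried the same alleles. At the Trp53 locus these were Trp53wm-R172H/fl, beside the transgene K14-Cre and, at another locus, Rosa26LSL CAS9-P2A-EGFP/+. K14-Cre is Cre recombinase under the keratin 14 promoter, which is active in basal epithelium, so that Cas9 and a green fluorescent protein are switched on in cells in which Cre has acted. R172H replaces 1 amino acid in the domain by which p53 binds DNA, and "fl" is an allele that Cre can remove. The tumours arose spontaneously and received AAV on days 0, 3 and 8. They were taken when the animal met the criteria for euthanasia. The sources used here do not give the age of the mice or the interval from the last injection to collection. AAV-delta-mut-p53 4 and 5 share a number in their titles, and nothing else says which tumours came from separate animals.

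Meox1 is a homeobox transcription factor of the somites, the blocks of paraxial mesoderm from which vertebrae and skeletal muscle form, and its close relative Meox2 acts there with it. Rflna encodes refilin A, which binds filamins and bundles actin filaments and, with refilin B, takes part in skeletal development. Lhfpl1 encodes a membrane protein of the LHFPL tetraspan family, whose better known members belong to hair-cell mechanotransduction and inhibitory synapses. Fam43b is one of a pair of genes for proteins with a phosphotyrosine-interaction domain. Irak1bp1 encodes SIMPL, a protein that binds the kinase IRAK1 and takes part in NF-kB signalling after tumour necrosis factor or interleukin 1. Meox1 and Rflna are genes of development by their known roles, while Irak1bp1 is a signalling gene.

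For Rflna and Fam43b, the coding stretch in which each is most like its close relative is shown because the relatives are described below beside the selected genes. The stretches are 60 coding bases within 1 exon, 5′ to 3′, from GENCODE M21 transcripts on GRCm38, and capitals mark the bases at which the pair differs.
Rflna: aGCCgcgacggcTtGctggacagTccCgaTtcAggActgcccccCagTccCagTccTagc
Rflnb: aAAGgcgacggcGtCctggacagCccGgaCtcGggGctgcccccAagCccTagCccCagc
Fam43b: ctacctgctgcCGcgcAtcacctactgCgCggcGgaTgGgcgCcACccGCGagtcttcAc
Fam43a: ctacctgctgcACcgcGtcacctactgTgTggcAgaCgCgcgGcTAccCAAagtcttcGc

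The refilin stretches lie in exon 1 of 3, at chr5:125003616-125003675 on the plus strand for Rflna and chr11:76027524-76027583 on the minus strand for Rflnb, with 45 of 60 bases identical. Fam43b and Fam43a each have 1 exon, and their stretches, at chr4:138395532-138395591 on the minus strand and chr16:30601001-30601060 on the plus strand, also share 45 of 60 bases. Even where the pairs are most alike, the bases in capitals tell the genes apart. In the annotated transcripts of Rflna, Meox1 and Irak1bp1, 0 stretches of 50 bases occurred in another gene on either strand. For Lhfpl1, 156 of 1852 such stretches (8.42%) also occurred in the pseudogene Gm42816, which had 1 count in AAV-Control 1 and 0 in the other tumours. For Fam43b, 825 of 2388 (34.5%) overlapped AB041806, an antisense gene that shares 919 exonic bases with it.

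Promoter sequence from RefSeq (GRCm38.p6) covered 2 of the 5 genes, Fam43b and Irak1bp1. That of Fam43b is shown because part of it precedes the annotated transcripts of the gene. The matches below are descriptions of letters in a window. Capitals mark a CCAAT box in the 180 bases of Fam43b that precede its annotated transcripts, at chr4:138396529-138396708 on the minus strand.
Fam43b: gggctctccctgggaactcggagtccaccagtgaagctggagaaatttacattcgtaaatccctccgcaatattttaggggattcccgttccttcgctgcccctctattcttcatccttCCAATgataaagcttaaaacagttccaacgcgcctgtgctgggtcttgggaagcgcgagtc

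Over the 250 bases before the RefSeq start, searched on both strands, the CCAAT box (CCAAT) of Fam43b lay 131 bases before the start, and 33.8% of 32851 promoters held one. The E-box (CACGTG) of Irak1bp1 lay 22 bases before the RefSeq start, and 6.02% of promoters held one. The whole window of Irak1bp1 lies inside exon 1 of a longer GENCODE transcript, in its untranslated part, since that transcript starts further upstream. The GC box (GGGCGG), present in 32.7% of promoters, had 2 matches in Fam43b and 1 in Irak1bp1. TATAAA, present in 12.4%, had 0 matches in both. The GC content of the same window was 57.2% for Fam43b and 56.4% for Irak1bp1, where the median promoter had 52.4%.

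Libraries held 18581545 to 30953250 counts, and each of the 3 control libraries was deeper than each of the 6 others, so levels are given as CPM: the reads of a gene over all reads of its tumour, brought to one common library size and corrected by TMM factors. RNA of the targeted gene, Trp53, had a mean of 43.4 ± 4.71 CPM (SD, n = 3) in control tumours against 32.4 ± 11.9 CPM (SD, n = 6) in targeted ones. The difference missed the threshold of edgeR's quasi-likelihood test (FDR = 0.78). Targeted tumours 1 and 2 had 13.1 and 22.0 CPM and the others 37.8 to 41.5 CPM, where controls had 39.3 to 48.6 CPM. Every targeted tumour was below the control mean, so Trp53 itself met the selection rule. Epithelial markers were present in every tumour: the 12 luminal ones summed to 408 to 4777 CPM and the 10 basal ones to 235 to 1936 CPM. AAV-delta-mut-p53 2 stood apart, with 45897 CPM over 15 skeletal muscle markers, where the other tumours had 45.0 to 455 CPM. It also had the lowest luminal sum and the highest fibroblast, adipocyte and leukocyte sums. In whole tumours, fewer cells of a type and less RNA per cell cannot be told apart.

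The selection rule was met by 1978 of 19606 tested genes (10.1%), and the 5 genes lay far inside its limit. Genes at that limit were sought among protein-coding genes of at least 1 CPM, without symbols such as Gm, Rik or immunoglobulin segments. Csnk2b was just inside, with 188.76 CPM in the control mean and 188.71 CPM in the highest AAV-delta-mut-p53 tumour. Ube2d1 was just outside, with 39.1782 and 39.1787 CPM. In the highest AAV-delta-mut-p53 tumour, Lhfpl1 stood at 11.0% of its control mean, Fam43b at 15.4%, Rflna at 16.9%, Meox1 at 35.2% and Irak1bp1 at 45.9%. By this share they were the 12th, 22nd, 25th, 120th and 192nd of the 1978 genes. The share is built from the same values as the rule that chose them, so these places are a description only.

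**Figure D1:**
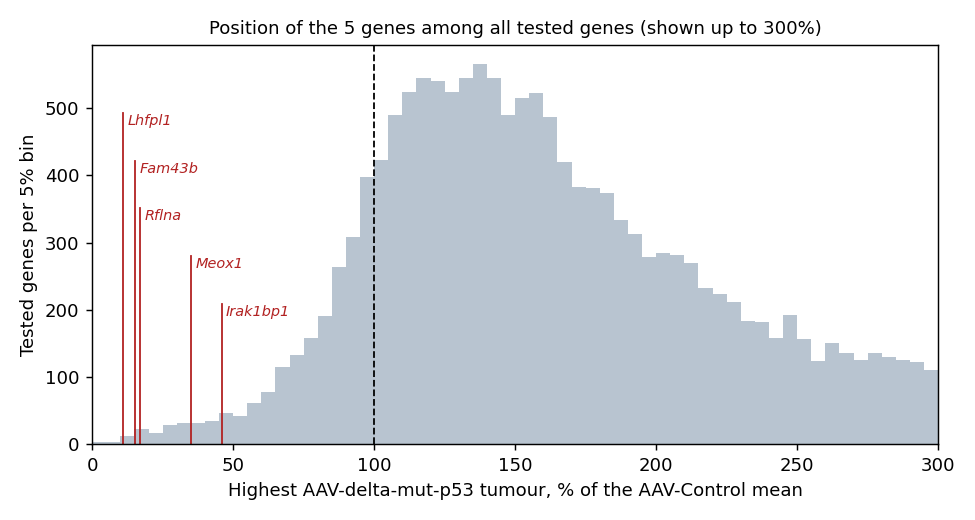
Histogram of tested genes (y axis, genes per 5% bin) by the level in the highest AAV-delta-mut-p53 tumour as a percent of the AAV-Control mean (x axis, up to 300%). The dashed line marks the rule's limit of 100%, and red lines mark the 5 genes, which lie between 11.0% for Lhfpl1 and 45.9% for Irak1bp1.

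All 5 genes passed the filter on low counts, and the small counts of Lhfpl1 and Fam43b passed it through the control tumours. For 4 of the 5, every AAV-delta-mut-p53 tumour was below every control. Rflna was the exception. Over all tested genes, 312 of 19606 (1.59%) had that order, and since the rule used the same contrast nothing is read from the members' count. In edgeR's test 0 genes (0%) passed an FDR of 0.05, the 5 included, while 1387 genes (7.07%) had an unadjusted p under 0.05, as did all 5. Limma voom called 0 genes and DESeq2 called 104, of which 44 (0.224%) were lower and included all 5. These calls rest on the contrast that chose the genes.

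**Figure D2:**
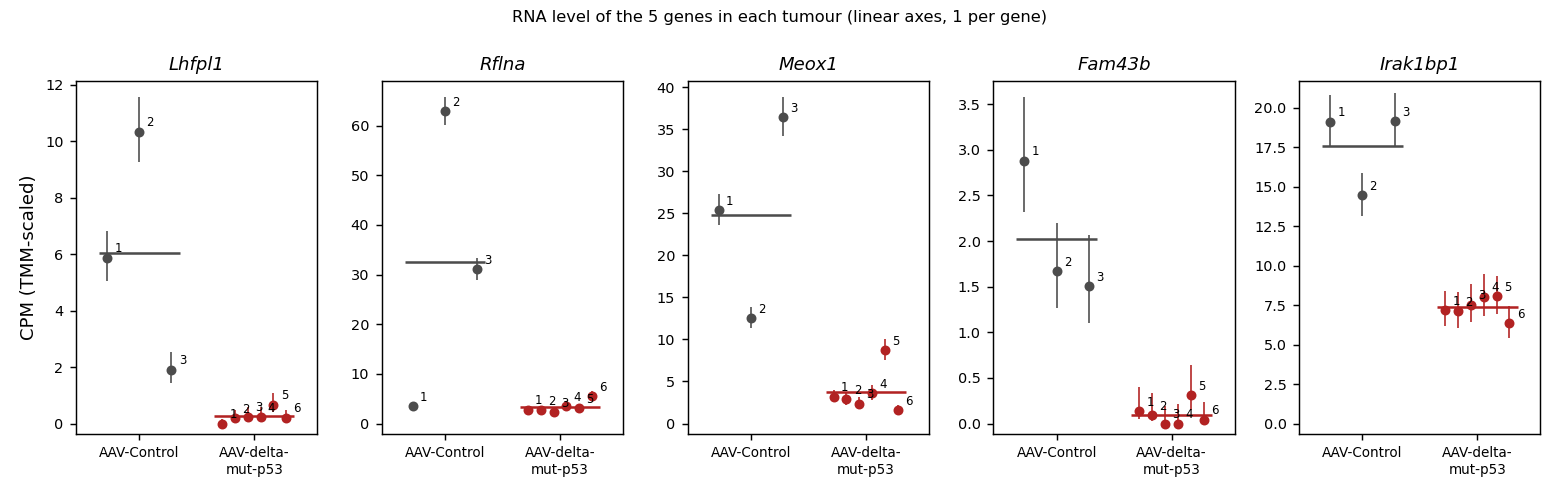
Level of each gene in each tumour (y axes, CPM with TMM scaling, linear, 1 axis per gene), with tumour numbers beside the points. Thin bars are 95% Wilson intervals for counting error and thick lines are group means. Rflna is the gene in which AAV-Control 1, at 3.44 CPM, lies among the AAV-delta-mut-p53 tumours.

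Meox1 (ENSMUSG00000001493.9, chr11:101877510-101894374, minus strand, 3 exons), the somite transcription factor, had 721, 376 and 919 counts in AAV-Control 1 to 3, or 25.3, 12.5 and 36.4 CPM. In AAV-delta-mut-p53 1 to 6 it had 71, 62, 48, 64, 197 and 39 counts, or 3.19, 2.86, 2.34, 3.57, 8.72 and 1.59 CPM. The groups did not overlap, although AAV-delta-mut-p53 5 stood well above the rest of its group and nearer to AAV-Control 2. The means were 24.8 ± 11.9 CPM (SD, n = 3) and 3.71 ± 2.55 CPM (SD, n = 6), a ratio of 6.67. The log2 fold change was -2.74 (SE 0.54, 95% confidence interval -3.93 to -1.54). Without AAV-delta-mut-p53 5 it was -3.17.

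Rflna (ENSMUSG00000037962.7, chr5:125003221-125012547, plus strand, 3 exons), the filamin-binding refilin A, had 98, 1885 and 785 counts in the controls, or 3.44, 62.9 and 31.1 CPM. The AAV-delta-mut-p53 tumours had 62, 58, 46, 63, 69 and 135 counts, or 2.79, 2.68, 2.25, 3.52, 3.05 and 5.50 CPM. The difference in means therefore came from AAV-Control 2 and 3, an 18.3-fold range within controls, while AAV-Control 1 lay within the range of the targeted tumours. AAV-delta-mut-p53 4 and 6 were above AAV-Control 1, whose 95% Wilson interval for counting error was 2.83 to 4.20 CPM and held number 4 but not number 6. The means were 32.5 ± 29.7 CPM (SD, n = 3) and 3.30 ± 1.16 CPM (SD, n = 6), and the log2 fold change was -3.30 (SE 0.65, 95% confidence interval -4.74 to -1.85). It was -2.37 without AAV-Control 2. With limma voom and sample quality weights, which give less weight to libraries that stand apart, it was -1.53.

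Lhfpl1 (ENSMUSG00000041700.9, chrX:145290359-145349089, minus strand, 4 exons), the tetraspan membrane protein gene, had 167, 310 and 48 counts in the controls, or 5.87, 10.3 and 1.90 CPM. The AAV-delta-mut-p53 tumours had 0, 4, 5, 4, 15 and 5 counts, or 0, 0.185, 0.244, 0.223, 0.664 and 0.204 CPM. The groups did not overlap, and the lowest control, AAV-Control 3, lay above the highest of the others, AAV-delta-mut-p53 5. The 0 in AAV-delta-mut-p53 1 leaves room for up to 0.173 CPM by the upper 95% Wilson limit, so RNA was near the limit of detection there and not shown to be absent. The means were 6.04 ± 4.22 CPM (SD, n = 3) and 0.253 ± 0.219 CPM (SD, n = 6), and the log2 fold change was -4.54 (SE 0.87, 95% confidence interval -6.46 to -2.63). All 6 AAV-delta-mut-p53 tumours together gave 33 counts.

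Fam43b (ENSMUSG00000078235.3, chr4:138394092-138396528, minus strand, 1 exon) had 82, 50 and 38 counts in the controls, or 2.88, 1.67 and 1.51 CPM. The AAV-delta-mut-p53 tumours had 3, 2, 0, 0, 7 and 1 counts, or 0.135, 0.0924, 0, 0, 0.310 and 0.0407 CPM. It was the least abundant of the 5, with 13 counts in all AAV-delta-mut-p53 tumours together, and the groups did not overlap. The 0 counts of AAV-delta-mut-p53 3 and 4 leave room for up to 0.188 and 0.214 CPM by the upper 95% Wilson limit. The means were 2.02 ± 0.752 CPM (SD, n = 3) and 0.0963 ± 0.117 CPM (SD, n = 6), and the log2 fold change was -4.29 (SE 0.87, 95% confidence interval -6.21 to -2.37). The sources used here do not give the strand setting of the counting, so reads of the overlapping antisense gene AB041806 could have been counted with Fam43b or left out. That gene had 6, 15 and 0 counts in the controls, 1 in AAV-delta-mut-p53 5 and 0 in the rest, fewer than Fam43b in every tumour but AAV-delta-mut-p53 3 and 4, where both were at 0.

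Irak1bp1 (ENSMUSG00000032251.12, chr9:82829540-82847687, plus strand, 4 exons), the IRAK1-binding protein gene, had 544, 433 and 483 counts in the controls, or 19.1, 14.4 and 19.1 CPM. The AAV-delta-mut-p53 tumours had 160, 154, 154, 144, 182 and 156 counts, or 7.19, 7.12, 7.52, 8.04, 8.05 and 6.36 CPM. It had the smallest difference of the 5 and the tightest groups, with the highest tumour 1.32 times the lowest in controls and 1.27 times in targeted tumours. The means were 17.6 ± 2.70 CPM (SD, n = 3) and 7.38 ± 0.641 CPM (SD, n = 6), so 42.0% of the control level remained. The log2 fold change was -1.25 (SE 0.30, 95% confidence interval -1.91 to -0.59). RNA of Irak1bp1, Meox1 and Rflna was counted in all 9 tumours, and these genes were lower in level and not lost.

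Per kilobase of exon, the order in control tumours was Rflna at 16.7 CPM per kb (range 1.77 to 32.4), Meox1 at 11.1 (5.63 to 16.3), Irak1bp1 at 8.14 (6.69 to 8.87), Lhfpl1 at 3.17 (0.9997 to 5.44) and Fam43b at 0.828 (0.618 to 1.18). Of the neighbours in this order, Irak1bp1 and Lhfpl1 alone did not overlap in range. In the AAV-delta-mut-p53 tumours the order was Irak1bp1 at 3.42 CPM per kb (2.95 to 3.73), Rflna at 1.70 (1.16 to 2.84), Meox1 at 1.67 (0.713 to 3.91), Lhfpl1 at 0.133 (0 to 0.349) and Fam43b at 0.0395 (0 to 0.127). There the ranges of Irak1bp1 and Rflna did not overlap, nor did those of Meox1 and Lhfpl1, while the other neighbours did. Irak1bp1 thus stood in the third place in controls and in the first in targeted tumours, where its range still overlapped that of Meox1.

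The 5 genes did not rank the tumours alike. Among controls, AAV-Control 2 was the highest for Lhfpl1 and Rflna and the lowest for Meox1 and Irak1bp1, and AAV-Control 1 was the highest for Fam43b. Among AAV-delta-mut-p53 tumours, number 5 was the highest for Lhfpl1, Meox1 and Fam43b, and by a narrow margin for Irak1bp1, while number 6 was the highest for Rflna. Numbers 4 and 5, which share a title number, differed: number 5 had 8.72 CPM of Meox1 against 3.57, and 0.664 CPM of Lhfpl1 against 0.223. Without AAV-delta-mut-p53 2, the tumour with muscle RNA, the log2 fold changes were -4.46 for Lhfpl1, -3.24 for Rflna, -2.65 for Meox1, -4.26 for Fam43b and -1.23 for Irak1bp1. These are close to the values with all tumours.

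The family relatives Rflnb, Meox2, Fam43a, Lhfpl2 and Lhfp had log2 fold changes nearer to 0 than the selected gene of their family. Of the 16 tested relatives and partners 0 passed edgeR's test over all genes, with 2 at an unadjusted p under 0.05, and DESeq2 and limma voom called 0 after adjustment. Of those described below, Rflnb, Flna and Irak1 themselves met the selection rule, as the highest AAV-delta-mut-p53 tumour of each was below its control mean. The 2 sizes were not tested against each other, and those of the selected genes were fixed by the choice. Rflnb, refilin B, was 155, 118 and 165 CPM among controls and 53.6, 21.3, 38.1, 97.2, 103 and 129 CPM in targeted tumours 1 to 6. It was below every control in 5 of 6 tumours, all but number 6. Its log2 fold change was -0.99 (SE 0.49, 95% confidence interval -2.07 to 0.09). Of the filamins that refilins bind, Flna had means of 2171 CPM in controls and 1249 CPM in targeted tumours. Its log2 fold change was -0.80, or -0.25 without AAV-Control 2. Flnc, the filamin of muscle, was 14.6 and 53.3 CPM, with 233 CPM in AAV-delta-mut-p53 2. With that tumour its log2 fold change was 1.86 and without it 0.23, and limma voom gave -0.35. Fblim1, which links filamins to cell adhesions, was 56.3 and 37.5 CPM.

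Meox2 was 12.2, 5.80 and 9.55 CPM among controls and 1.84, 28.6, 1.07, 3.24, 3.50 and 1.30 CPM in targeted tumours 1 to 6. All but number 2, the tumour with muscle RNA, were below every control. Its log2 fold change, -0.47 (SE 0.996) over the 9 tumours, was -2.05 without number 2 and -1.98 with limma voom. Meox1 in the same tumour was 2.86 CPM, within its group, so the pair differed there. Fam43a was 27.8, 8.07 and 4.79 CPM in controls and 3.01 to 25.9 CPM in targeted tumours, and its log2 fold change of -0.25 was 0.81 without AAV-Control 1. Lhfpl2 was 103 and 102 CPM, and its log2 fold change was -0.01 (SE 0.53, 95% confidence interval -1.19 to 1.17), a value whose sign turned with other scaling or with single tumours left out. Lhfp, listed elsewhere as Lhfpl6, was 40.8 and 26.8 CPM, with -0.60 on the log2 scale, or 0.62 without AAV-Control 3 at 87.7 CPM. Lhfpl3, Lhfpl4 and Lhfpl5 had 0 to 21 counts per tumour and were not tested.

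**Figure D3:**
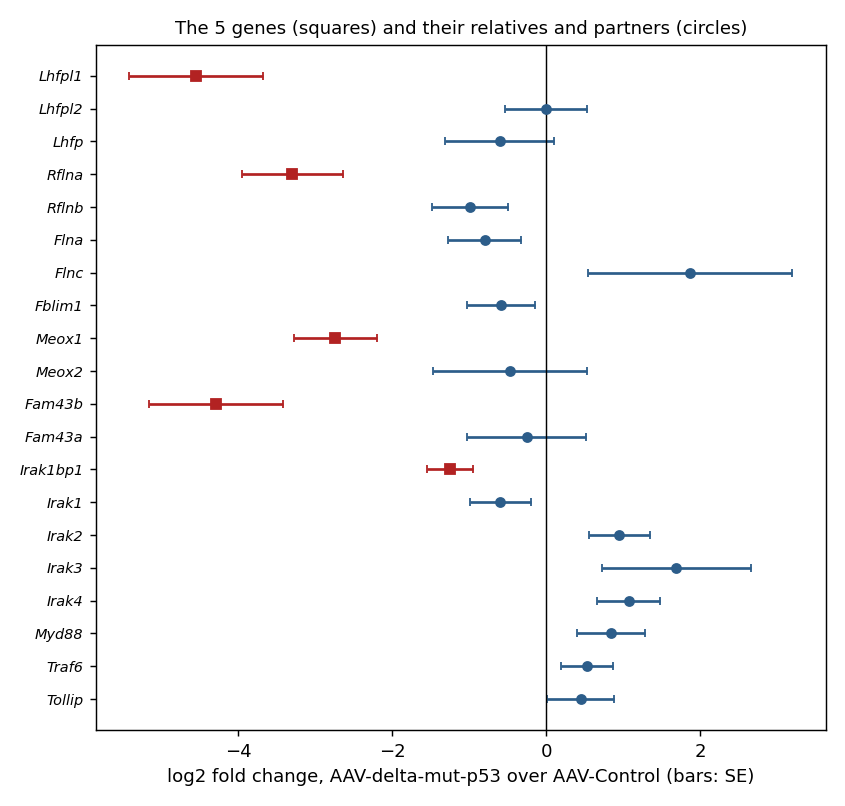
Log2 fold change of AAV-delta-mut-p53 over AAV-Control (x axis, bars are SE from the edgeR fit) for the 5 selected genes (red squares) and their relatives and partners (blue circles). The selected genes lie between -4.54 and -1.25 and the others between -0.99 for Rflnb and 1.86 for Flnc.

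The partners of Irak1bp1 had means on the other side. Of 7 tested genes of the IRAK1 complex besides it, 6 had a higher mean in targeted tumours, with a median log2 fold change of 0.84, where 55.6% of all tested genes were higher and their median was 0.09. Irak4, the kinase that activates IRAK1, was 12.4, 12.9 and 10.9 CPM among controls and 24.4, 27.1, 19.6, 15.2, 17.8 and 48.0 CPM in targeted tumours. Every AAV-delta-mut-p53 tumour was above every control. Its log2 fold change was 1.07 (SE 0.41, 95% confidence interval 0.17 to 1.97), which did not pass edgeR's test after adjustment. Irak2, a related kinase, was 17.2 and 33.2 CPM (log2 fold change 0.95), and the adaptor Myd88 was 18.3 and 32.8 CPM (0.84). Traf6, the ubiquitin ligase below them, was 33.5 and 48.4 CPM, and Tollip, a brake on the complex, 56.6 and 77.1 CPM. Irak3, an inhibitory member, was 5.16 and 16.6 CPM, with 67.2 CPM in targeted tumour 2. Its log2 fold change of 1.69 was 0.34 without that tumour. Irak1 itself, the kinase that Irak1bp1 binds, had a mean of 105 CPM in controls through 190 CPM in AAV-Control 2, and 69.6 CPM in targeted tumours. Its log2 fold change was -0.60, or 0.15 without AAV-Control 2.

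Of 21 NF-kB subunits and regulators, all tested, 18 had a higher mean in AAV-delta-mut-p53 tumours and 3 a lower one, with a median log2 fold change of 0.94. None passed edgeR's adjusted threshold, and 4 were higher at an unadjusted p under 0.05. Birc3, a survival gene that NF-kB induces, had a mean of 21.0 ± 7.05 CPM (SD, n = 3) in controls against 51.0 ± 24.3 CPM (SD, n = 6). Nfkbia, the inhibitor that NF-kB itself induces, had a mean of 33.3 ± 4.57 CPM (SD, n = 3) in controls against 59.0 ± 18.6 CPM (SD, n = 6). For both genes AAV-delta-mut-p53 5 was within the control range, at 17.8 CPM of Birc3 and 30.4 CPM of Nfkbia, and the other 5 tumours were above every control. The 12 leukocyte markers had 9 tested members, all with a higher mean (median log2 fold change 1.25). Their summed level was 161 to 266 CPM in controls and 132 CPM in number 5 to 1065 CPM in number 2 of the targeted tumours, and their part in the NF-kB values was not tested.

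Of 24 regulators of somites and paraxial mesoderm besides Meox1, Meox2 among them, 15 were tested, with 7 higher and 8 lower means, a median log2 fold change of -0.00 and 0 with an unadjusted p under 0.05 by edgeR. At the adjusted threshold limma voom and DESeq2 called 0. Foxc1, a forkhead factor, was 96.1 and 106 CPM. Tbx6, which specifies paraxial mesoderm, was 1.02 CPM in both groups. Pax3, a paired-box factor of the somite and neural crest, stood at 14.3 and 16.6 CPM in targeted tumours 3 and 4 and at most 0.867 CPM in the rest, with an unadjusted p of 0.0131 by DESeq2 (FDR = 0.304). HOX genes, which set position along the body axis, had 26 of 39 members tested, 13 higher and 13 lower, with a median of -0.04. Hoxb9 was 1.34, 1.27 and 0.713 CPM in controls and 0.0407 to 0.647 CPM in targeted tumours, with no overlap and a log2 fold change of -1.82 (SE 0.70). Hoxb13 had 0 counts in all 3 controls, while targeted tumours 3, 4 and 6 had 4.15, 1.51 and 7.66 CPM.

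Rflna belongs to the list of genes of cartilage and skeletal differentiation. Of its other genes, the fibrillar collagens Col2a1 and Col11a1 were named because their unadjusted p was the smallest in edgeR's test. Both had every AAV-delta-mut-p53 tumour below every control, an order that 312 of 19606 tested genes (1.59%) had. Since the 2 were picked on the same contrast, nothing is read from that order. Col2a1, the main collagen of cartilage, was 49.7, 153 and 38.3 CPM among controls and 8.14, 2.68, 0.586, 10.4, 11.7 and 2.53 CPM in targeted tumours 1 to 6. The means were 80.3 ± 63.1 CPM (SD, n = 3) and 6.02 ± 4.68 CPM (SD, n = 6), and the log2 fold change was -3.74 (SE 0.78, 95% confidence interval -5.47 to -2.01). It passed DESeq2 (FDR = 0.00332) and did not pass edgeR's test (FDR = 0.677). Col11a1, which copolymerises with it, was 392, 600 and 648 CPM among controls and 94.8, 29.1, 54.9, 109, 313 and 161 CPM in targeted tumours, with a log2 fold change of -2.11 (SE 0.59) that did not pass either test. For both collagens, and for Lhfpl1, Meox1 and Fam43b, AAV-delta-mut-p53 5 was the highest of its group.

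Of the 17 tested genes of that list other than Rflna, the 2 collagens and Rflnb included, 10 had a higher mean and 7 a lower one, with a median log2 fold change of 0.07. At an unadjusted p under 0.05, the 2 lower genes were Col2a1 and Col11a1, and the 1 higher gene was Col10a1. Sox9, the transcription factor that turns on Col2a1 in cartilage, was 31.2 CPM in controls and 83.1 CPM in targeted tumours. Its log2 fold change was 1.41 (SE 0.996), with an unadjusted p of 0.184 by edgeR. Runx2, the regulator of bone formation, was 20.8 and 11.2 CPM, and Col9a1, another cartilage collagen, was 49.3 and 58.2 CPM. The 20 genes of myofibroblasts and the TGF-beta response had 14 higher and 6 lower means. At an unadjusted p under 0.05 by edgeR, 2 were higher and 1 was lower. The higher ones were Thbs1, a matrix protein, at 213 and 746 CPM, and Tgfb3, at 19.2 and 58.9 CPM. AAV-delta-mut-p53 5 was below every control for Thbs1 (132 CPM) and within the control range for Tgfb3 (17.3 CPM). The lower one was Smad3, at 163 and 91.9 CPM. Across the relatives and all these lists, 113 genes besides the members were tested, and 70 were higher and 43 lower. Of these 0 passed edgeR's test and 15 had an unadjusted p under 0.05, and DESeq2 called Col2a1 alone.

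Among the cell type lists, with all tumours counted, the endothelial one had the largest share of lower means. Of its 10 markers 9 had a lower mean in AAV-delta-mut-p53 tumours, with a median log2 fold change of -0.83, and 5 at an unadjusted p under 0.05. Cdh5, the cadherin of vessel walls, was 129 and 52.1 CPM and Cldn5, their tight-junction claudin, was 22.4 and 5.35 CPM. Cldn5 was 45.3, 16.7 and 5.19 CPM in AAV-Control 1 to 3. AAV-Control 3 thus lay within the targeted range of 2.52 to 11.6 CPM. The sum of the list was 279 to 634 CPM in controls and 148 to 397 CPM in targeted tumours, where AAV-delta-mut-p53 5 was the highest, as it was for 4 of the 5 genes. The groups of that sum overlapped, while those of Lhfpl1, Meox1, Fam43b and Irak1bp1 did not. The fibroblast list had 8 higher and 4 lower means and sums of 548 to 2157 CPM in controls. Its targeted sums were 4930.1 CPM in AAV-delta-mut-p53 2 and 347 to 1252 CPM in the other tumours of that group. Most of its markers were highest in number 2, so its higher means rested largely on that tumour. The share of lower means in each list was not computed without number 2. Neural and Schwann cell markers had sums of 297 to 999 CPM in controls and 97.1 to 623 CPM in targeted tumours. The highest sum, in AAV-Control 2, was mostly Sox10, at 665 CPM. The basal list had sums of 1376 to 1936 CPM and 235 to 1896 CPM. All markers of the 8 lists had counts in at least 1 tumour. The part of these cells in the levels of the 5 genes was not tested.

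For each member the 2 genes of most similar pattern were found by Pearson's r of log2(CPM + 1) over the 9 tumours, among tested genes of at least 1 CPM. These values describe genes that share libraries and groups. Usp51, a ubiquitin protease gene on chromosome X, was among the 2 for Meox1 (r = 0.975), Irak1bp1 (0.976) and Fam43b (0.955). It was 6.22, 2.07 and 4.99 CPM among controls and 0, 0.139, 0, 0.279, 0.885 and 0 CPM in targeted tumours. For Meox1 the other gene was Scrg1 (r = 0.960), a gene of mesenchymal and cartilage cells, at 23.3, 9.07 and 19.1 CPM in controls and 0 to 7.66 CPM in targeted tumours. As for Meox1, AAV-Control 2 was the lowest control for both Usp51 and Scrg1 and AAV-delta-mut-p53 5 the highest of its group. Fam43b and Irak1bp1 were alike with r = 0.956, and Irak1bp1 and Meox1 with r = 0.954. For Lhfpl1 the genes were Mettl9, a methyltransferase (r = 0.957), and Shc3, a signalling adaptor of neurons (r = 0.957). For Rflna they were Lancl3 (r = 0.935) and Dmc1, a meiotic recombinase (r = 0.930). Ranked by Spearman's rho in place of r, 0 of these 10 choices were the same, and with a pseudocount of 0.1 in place of 1 there were 4.

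**Figure D4:**
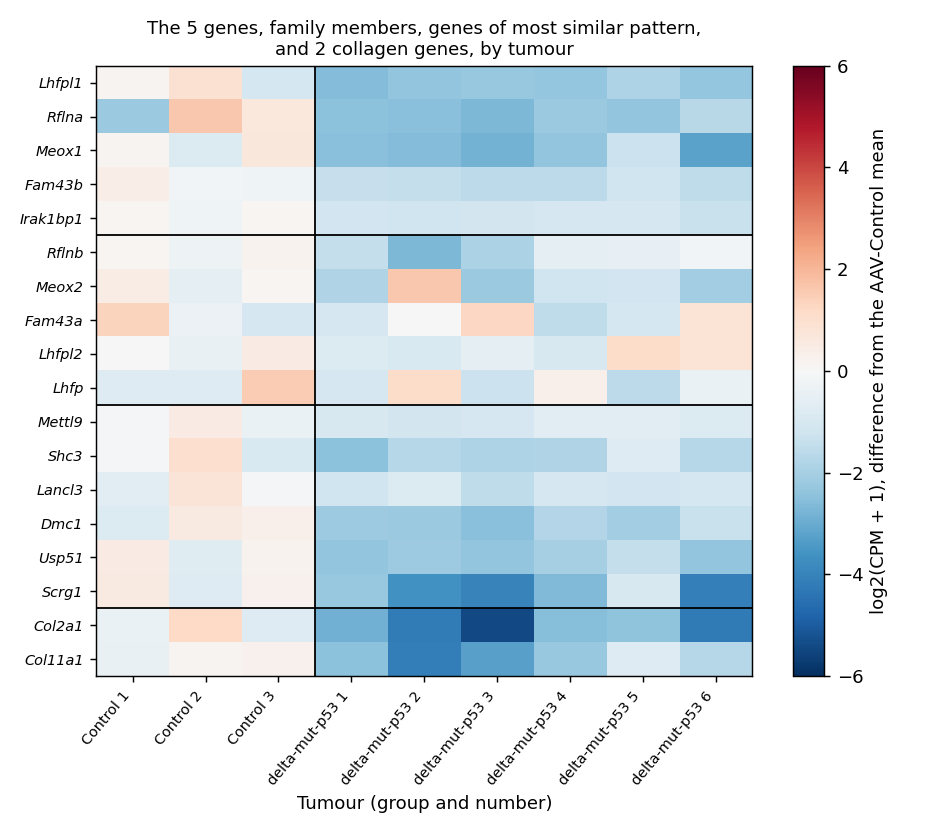
Difference of log2(CPM + 1) from the AAV-Control mean (colour scale, blue is lower) in each tumour (columns) for the 5 genes, their relatives, the genes of most similar pattern and 2 collagen genes (rows, in blocks split by lines). The 5 top rows are blue in every AAV-delta-mut-p53 column and also in at least 1 control column each, most deeply for Rflna in Control 1 (-2.23).

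The neighbours of the 5 genes on their chromosomes were described to place each one. Zfp664, a zinc finger gene 101 kb from Rflna, was 267, 252 and 158 CPM in controls and 72.6 to 146 CPM in targeted tumours, with no overlap and a log2 fold change of -0.99 (SE 0.30). Another 8 neighbours lay between -1.11 (SE 0.88) for Cda, next to Fam43b, and 0.42 (SE 1.26) for Mei4, next to Irak1bp1, in log2 fold change. Of all 10 neighbours 0 passed edgeR's test after adjustment, nor did any pass DESeq2 or limma voom, and Zfp664 alone had an unadjusted p under 0.05.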

How the data were processed

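The data were 1 table of raw read counts per gene, which the authors deposited with 1 column per tumour and Ensembl gene identifiers as rows. Per the labels, strand-specific total RNA libraries were made. STAR 2.6.0b, DESeq2 and GRCm38 are named in the submitters' processing notes. The sources used here do not give the counting program, its strand setting or the annotation release. Symbols and positions came from GENCODE M21, which held 43749 of the 49585 identifiers with their version, and 49326 had a symbol. The genes and gene lists were chosen with earlier results of these data known.

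Genes kept by filterByExpr (minimum count 10) entered a 2-sided quasi-likelihood test (edgeR 4.0.16, R 4.3.3) with TMM scaling and no covariate, adjusted by the Benjamini-Hochberg method over 19606 genes at an FDR of 0.05. The named genes were the 5 members, Trp53, all tested relatives, the 2 genes of smallest p per pathway list, the 2 genes most like each member (Pearson's r, pseudocount 1) and the nearest tested protein-coding genes. Other genes of the lists were named after their values were seen. Wilson intervals and zero counts cover counting error only. The p-values measure the spread between these samples, since few labels tie tumours to animals. Alternatives were DESeq2 1.42.0, limma 3.58.1 (voom with sample quality weights), other scalings and filters, the pair sharing a title number summed, and each tumour left out. A few genes that this naming rule takes are not reported here.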

Additional observations from a re-analysis of the deposited data

Results flagged for a closer look

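Dixon's gap over range, above 0.625, served here as a flag only. It gives no chance rate, since linear CPM need not follow a normal spread. In the 6 AAV-delta-mut-p53 tumours, the highest value of 10 of 45 named genes stood far from the next by this measure. In AAV-delta-mut-p53 5 these were Lhfpl1 (0.664 CPM, next 0.244), Meox1 (8.72 CPM, next 3.57), Shc3 (2.17 CPM, next 0.693), Usp51 (0.885 CPM, next 0.279) and Scrg1 (7.66 CPM, next 2.52). Shc3, Usp51 and Scrg1 had been named for their likeness to Lhfpl1 or Meox1, so they are not independent of them. In AAV-delta-mut-p53 2, the tumour with muscle RNA, they were Flnc (233 CPM, next 42.7), Meox2 (28.6 CPM, next 3.50) and Irak3 (67.2 CPM, next 11.7). Irak4 reached 48.0 CPM in AAV-delta-mut-p53 6 (next 27.1), and Tollip 159 CPM in AAV-delta-mut-p53 4 (next 76.7). The cause of these values was not tested.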

How the results depend on the processing

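Of the log2 fold changes of the 5 genes, all stayed below 0 in every alternative that tested them. The genes were chosen for that direction on the same counts, so nothing is read from the constant sign. With each tumour left out in turn they ran from -5.10 to -3.91 for Lhfpl1, -3.84 to -2.37 for Rflna, -3.17 to -2.35 for Meox1, -5.06 to -3.95 for Fam43b and -1.36 to -1.19 for Irak1bp1. Limma voom gave -1.53 for Rflna and -4.83 for Fam43b. A minimum count of 50 left 3 of the 5 genes tested, all meeting the rule and 2 with groups that did not overlap. Without a filter 4419 genes met the rule, and 2810 did with the pair sharing a title number summed, where the main fit had 1978. With that pair summed, 1729 genes had an unadjusted p under 0.05 by edgeR, against 1387 in the main fit, and 0 passed after adjustment. DESeq2 called 104 genes, among the relatives and lists 1, where edgeR and voom called 0. Genes at an unadjusted p under 0.05 numbered 2443 without a filter and 874 to 2009 with single tumours left out. Of relatives and list genes, 25 had such a p by voom, and 6 to 24 with single tumours left out. The sign turned for Lhfpl2 by total counts alone (0.025) and with single tumours left out (-0.35 to 0.27), for Flnc by voom (-0.35), and with single tumours left out for Fam43a (-0.68 to 0.81), Irak1 (-0.87 to 0.15) and Lhfp (-1.07 to 0.62). The cause of these changes was not tested. The median log2 fold change of all genes was 0.09, 0.20 without a filter and -0.02 by voom, and 53.9% of genes at an unadjusted p under 0.05 were higher, against 39.9% by voom and 65.5% by DESeq2. No paired analysis was possible because the labels pair no control tumour with a targeted one. With 3 controls and counts near 0, the sizes for Lhfpl1 and Fam43b are the least precise.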
